A study of Homo sapiens with 29 samples.

Results

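The genes described here make ribosomes. The set holds 44 of the 23710 genes of the deposited expression table: 37 that modify, process and assemble ribosomal RNA in the nucleolus and 7 of RNA polymerase I and its helpers. They were taken from a list of gene symbols, and all 44 have a value in every knockdown and compound column. Polyadenylated RNA was sequenced from the established human lung cancer lines H2122 and H460. Both are known to have mutated KEAP1, whose protein normally targets the transcription factor NRF2 (gene NFE2L2) for degradation. In H460, cells with a short hairpin RNA against GFP (shGFP, the control), NRF2 (shNRF2), NR0B1 (shNR0B1) or SNW1 (shSNW1) were sampled after 72 h of knockdown. In H2122, shGFP and shNRF2 cells were sampled after 24 h. In a separate experiment H460 cells, plated the night before, received 30 µM of BPK29 or BPK9, compounds named by code, or the solvent DMSO for 12 h. Each of these 9 groups has 3 libraries, and the hairpin sequences, their number per target and their promoter are not given in the labels.

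Ribosome production starts when RNA polymerase I, led to the ribosomal DNA by the factors UBTF and RRN3, transcribes a long precursor of the ribosomal RNAs. Small nucleolar ribonucleoproteins (snoRNPs) then modify it: the box C/D type, around the methyltransferase fibrillarin (FBL), methylates ribose, and the box H/ACA type, around dyskerin (DKC1), makes pseudouridine. Separate assembly factors cut, fold and export the precursors of the small and the large subunit. In tumour cells many of these genes are known targets of MYC, which binds DNA at E-boxes with the letters CACGTG, whereas NRF2 binds antioxidant response elements together with small MAF proteins.

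Promoter sequences are shown because the members moved together after NRF2 knockdown, and the letters show which of them hold an E-box near the start site. Of the 44 genes, 35 matched the RefSeq promoter table (build GRCh38.p14) by symbol, with 45 start sites between them, each covered from 250 bases before to 50 bases after the start. The letters CACGTG, which read the same on both strands, were present in 15 of these 35 genes (42.9%), against 13.0% of the 8607 genes tested after NRF2 knockdown in H2122 that have an entry and 8.77% of all 27305 genes of the table. The ETS letters CCGGAAG were in 14 of the 35 members, against 23.2% and 12.2% of those gene sets, and the NRF1 letters GCGCATGC in 3 members, DDX10, DKC1 and NOB1 (8.57%, against 6.69% and 3.68%). The core letters of the antioxidant response element, TGACNNNGC, were in 3 members, NCL, NHP2 and NOB1 (8.57%, against 19.6% and 16.1%). Each motif was searched on both strands within these stretches only, so sites farther away were not seen. A gene was counted once if any of its start sites held the motif, and none of these 4 strings contains another. In FBL, which fell most steeply among the snoRNP genes, an E-box (capitals) begins at base 7 counted from the start site. NOP56, NCL and POLR1B, which fell too, hold none in the stretch shown, where POLR1B is given for the first of its 2 start sites.
FBL (chr19:39846330-39846629, strand -): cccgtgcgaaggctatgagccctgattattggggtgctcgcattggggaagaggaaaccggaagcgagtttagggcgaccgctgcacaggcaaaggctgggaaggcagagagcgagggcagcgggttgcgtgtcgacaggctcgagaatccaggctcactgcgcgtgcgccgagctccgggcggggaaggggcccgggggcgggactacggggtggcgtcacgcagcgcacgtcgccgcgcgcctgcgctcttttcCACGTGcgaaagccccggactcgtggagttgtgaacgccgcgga
NOP56 (chr20:2652382-2652681, strand +): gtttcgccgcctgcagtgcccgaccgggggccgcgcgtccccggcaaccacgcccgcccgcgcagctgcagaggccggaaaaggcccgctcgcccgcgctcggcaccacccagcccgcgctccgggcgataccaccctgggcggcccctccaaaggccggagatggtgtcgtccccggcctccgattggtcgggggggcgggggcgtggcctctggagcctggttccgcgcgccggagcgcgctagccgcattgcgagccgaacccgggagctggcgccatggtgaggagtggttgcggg
NCL (chr2:231464435-231464734, strand -): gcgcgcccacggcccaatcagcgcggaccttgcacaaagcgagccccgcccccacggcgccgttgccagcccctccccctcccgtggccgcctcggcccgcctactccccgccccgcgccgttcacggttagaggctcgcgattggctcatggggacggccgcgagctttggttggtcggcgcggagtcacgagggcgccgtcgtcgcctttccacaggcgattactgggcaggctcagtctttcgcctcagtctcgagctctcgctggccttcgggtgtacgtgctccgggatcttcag
POLR1B (chr2:112541786-112542085, strand +): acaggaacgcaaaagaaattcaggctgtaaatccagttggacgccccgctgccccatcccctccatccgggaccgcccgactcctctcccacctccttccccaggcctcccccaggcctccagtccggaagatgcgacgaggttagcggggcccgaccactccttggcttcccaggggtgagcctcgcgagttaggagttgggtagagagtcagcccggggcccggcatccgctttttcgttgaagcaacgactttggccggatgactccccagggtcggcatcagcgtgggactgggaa

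Of the other E-box members, some that the results single out are shown with 30 bases around the site, or fewer where the stretch ends; DDX21, GAR1, GNL3, NOP14, NOP2, PES1 and UTP20 are not printed. Several sites lie close to the start site: the motif begins at base 4 in WDR43, 15 in MRTO4 and 29 in BYSL, and at base -5 in RRP9 and -64 in LYAR, where negative numbers count back from the start. For LYAR the position counts from the start site whose stretch holds the motif, and its other listed start site has none. DDX21, GAR1 and GNL3 also have a listed start site without the motif. EBNA1BP2 and NOP10 hold 2 sites each. A match in letters is a description of the sequence and not a measured binding site.
LYAR (chr4:4290068-4290097, strand -): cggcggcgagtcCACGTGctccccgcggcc
RRP9 (chr3:51941892-51941921, strand -): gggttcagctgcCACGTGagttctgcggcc
WDR43 (chr2:28894658-28894687, strand +): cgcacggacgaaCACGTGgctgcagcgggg
BYSL (chr6:41921515-41921544, strand +): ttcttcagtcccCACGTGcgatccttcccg
EBNA1BP2 (chr1:43172790-43172819, strand -): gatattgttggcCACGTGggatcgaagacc
EBNA1BP2 (chr1:43172241-43172260, strand -): gcgattcggtggCACGTGga
MRTO4 (chr1:19251807-19251836, strand +): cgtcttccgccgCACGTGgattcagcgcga
NOP10 (chr15:34343289-34343318, strand -): gtagggacactcCACGTGttttagcctgca
NOP10 (chr15:34343130-34343159, strand -): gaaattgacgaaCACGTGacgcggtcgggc

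Members with and without an E-box both moved after NRF2 knockdown. In H2122 the median log2 fold change was -1.31 over the 15 members that hold one (range -2.12 to 0.04) and -1.04 over the 20 that do not (range -2.33 to -0.15). In H460 the medians were -0.66 and -0.48. NOP10, the member with no fall in H2122, holds 2 E-boxes, and NPM3, with the lowest value, holds none in this window.

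**Figure D1:**
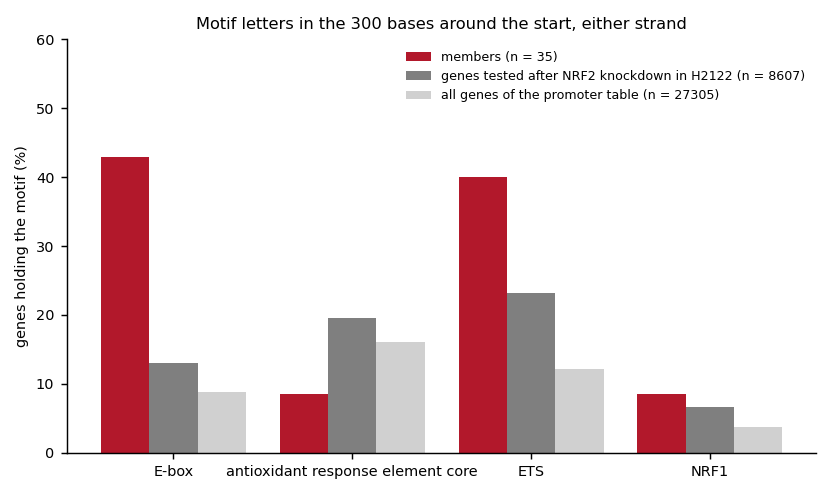
Share of genes (%, y axis) that hold each of 4 motifs (x axis) in the 300 bases around a start site, for the 35 members with a promoter entry (red), the 8607 tested genes with one (dark grey) and all 27305 genes of the table (light grey). The E-box stands at 42.9% of the members and the antioxidant response element core at 8.57%.

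The knockdowns were visible in their targets. NFE2L2 was at 58.5 ± 1.01 FPKM in H2122 shGFP and 26.6 ± 0.852 in shNRF2, and at 43.3 ± 1.54 and 26.8 ± 1.04 in H460 (mean ± SD, n = 3 libraries). FPKM here is reads per kilobase of transcript after scaling for depth. NR0B1 went from 47.6 FPKM in H460 shGFP to 18.2 in shNR0B1, and to 9.06 in shNRF2, so that the shNRF2 libraries also hold little NR0B1 RNA. SNW1 went from 51.2 to 32.2 FPKM in shSNW1. Each knockdown library held 16709893 to 24613434 reads and each compound library 19077604 to 24824626, and every member but PPAN had a mean of at least 10 FPKM in both shGFP groups. PPAN, a large subunit factor whose reads can be shared with a readthrough transcript into its neighbour P2RY11, was at 1.11 FPKM in H460 shGFP and 1.30 in H2122 shGFP. The keratin genes KRT8, KRT18 and KRT19 mark both lines as epithelial, but the epithelial genes EPCAM (0.888 FPKM) and CDH1 (0.00957 FPKM) were near 0 in H460 shGFP, against 333 and 75.7 FPKM in H2122 shGFP. Of markers of other cells, the immune genes PTPRC and CD3E and all 3 endothelial genes stayed under 1 FPKM in every library. Of the 5 immune markers, 5 stayed under 1 FPKM in all H2122 shGFP libraries, 3 in H2122 shNRF2 and 4 in each other group. The 5 immune markers summed to 1.22 to 1.39 FPKM in H2122 shGFP and 10.1 to 10.9 in shNRF2, and to 4.93 to 6.20 in H460 shGFP and 7.66 to 8.89 in shNRF2. The 4 fibroblast markers summed to 15.5 to 16.3 FPKM in H460 shGFP and 35.7 to 38.1 in shNRF2, and to 10.2 to 15.0 in H2122. The 5 epithelial markers summed to 2566 to 2580 FPKM in H2122 shGFP and 3884 to 4012 in shNRF2, and the part of these lists in the results was not tested.

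NRF2 knockdown lowered nearly the whole set in H2122. Of the 44 members, 43 fell and none rose, and NOP10 was the exception. Among all 11710 genes tested in this line 38.5% were called lower and 48.8% higher, a call being a Benjamini-Hochberg adjusted p under 0.05 from limma. The median log2 fold change was -1.30 over the members, a level of 0.407 times the control on the log2(FPKM + 1) scale used throughout, against 0.09 over all genes. Each of the 3 shNRF2 libraries had 43 members below the mean of the shGFP libraries. PPAN passed the filter of at least 1 FPKM in 3 libraries only through its shGFP libraries, so its fall is set by that filter; without it 42 of 43 members fell, with a median of -1.31. The members together took 0.996% ± 0.0138 of all reads in shGFP and 0.356% ± 0.00609 in shNRF2 (SD, n = 3), with no overlap. The labels do not say whether the 3 libraries of a group came from separate cultures, so p-values measure the spread between libraries, which may be technical. In such bulk RNA, fewer cells that express a gene and less RNA per cell cannot be told apart.

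In H460 the same knockdown, sampled at 72 h, lowered 38 members and raised 1, MRTO4. The background among 11938 genes was 39.0% lower and 40.9% higher. The median over the members was -0.62, or 0.649 times the control, against 0.01 over all genes. The read share of the set went from 0.953% ± 0.0161 in shGFP to 0.520% ± 0.0134 in shNRF2. POLR1A, POLR1C, RRN3, UTP3 and PPAN passed the test in neither direction, and without shGFP replicate 2 POLR1A was called too, which makes 2 members higher.

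**Figure D2:**
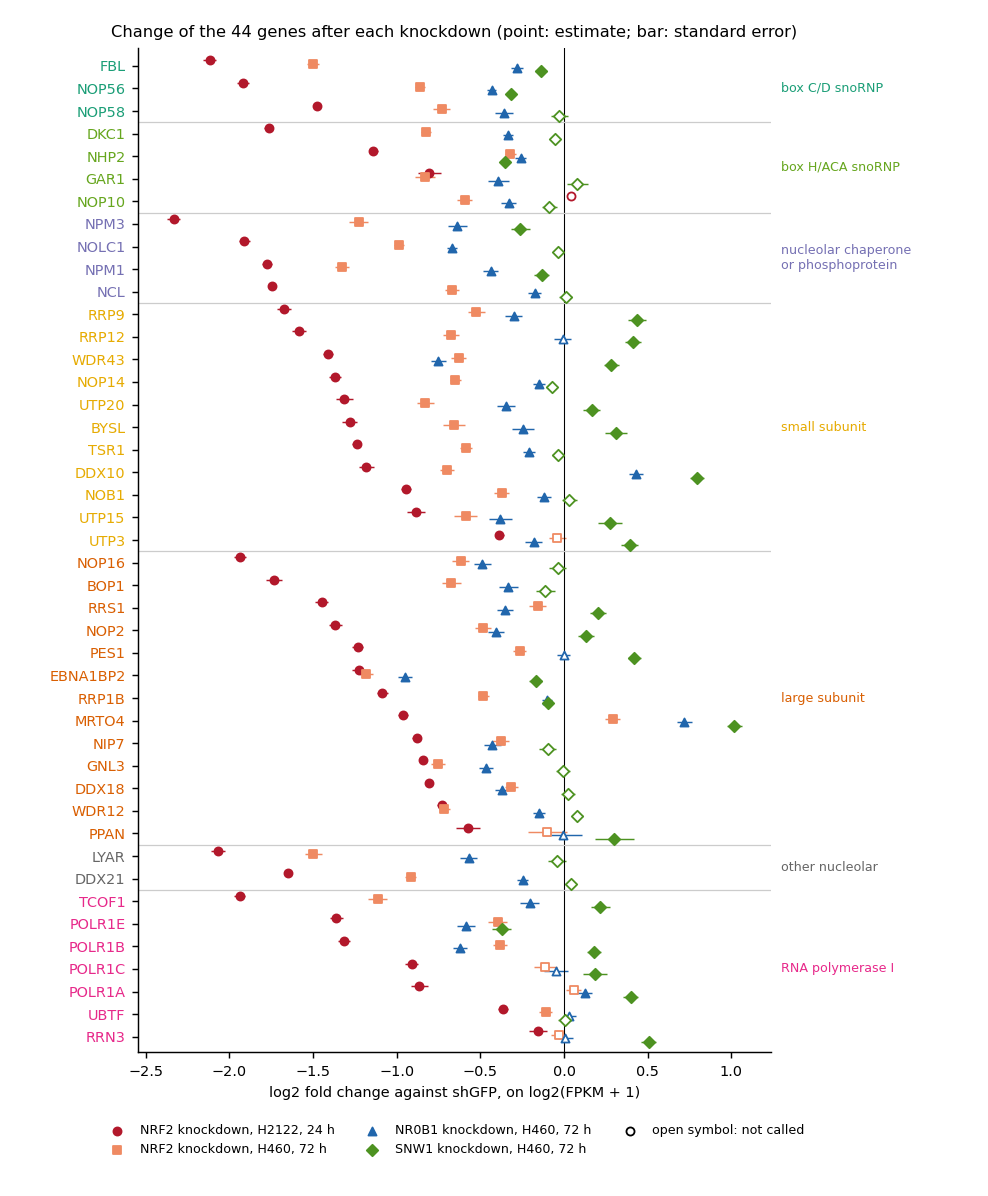
Log2 fold change against shGFP (x axis, on log2(FPKM + 1)) for the 44 members (y axis, grouped by role) after NRF2 knockdown in H2122 and after NRF2, NR0B1 and SNW1 knockdown in H460; bars are standard errors and open symbols did not pass the test. NRF2 knockdown points lie left of 0 except NOP10 in H2122 and MRTO4 and POLR1A in H460, while SNW1 knockdown points lie on both sides.

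The box C/D snoRNP genes were among the most reduced. FBL, the ribose methyltransferase, was at 197, 196 and 209 FPKM in H2122 shGFP and at 45.1, 43.4 and 47.9 in shNRF2. The H460 libraries gave 164, 168 and 178 with shGFP against 57.8, 61.8 and 59.1 with shNRF2. The groups stand far apart in both lines, with log2 fold changes of -2.12 (SE 0.038, adjusted p = 7.18e-11) and -1.50 (SE 0.036, adjusted p = 3.65e-13). NOP56, a scaffold of the same particle, was at 178, 170 and 177 FPKM in H2122 shGFP and at 47.1, 42.9 and 46.5 in shNRF2. The H460 libraries gave 155, 160 and 165 with shGFP against 88.2, 87.1 and 87.8 with shNRF2. Its H2122 libraries lie above those of H460 with shGFP and below them with shNRF2, and no groups overlap. The changes of NOP56 were -1.92 (SE 0.037) and -0.86 (SE 0.028), and NOP58, its partner, changed by -1.47 and -0.73.

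Of the 4 box H/ACA genes, 3 fell in H2122 and all 4 in H460. DKC1, the pseudouridine synthase, was at 71.3, 66.9 and 69.2 FPKM in H2122 shGFP and 19.4, 19.6 and 19.9 in shNRF2, and changed by -1.77 there and by -0.83 in H460. NHP2 fell by 1.14 in H2122 and by 0.32 in H460 on the log2 scale, and GAR1 by 0.81 and 0.83. NOP10, the smallest protein of the particle, stood apart. It was at 200, 210 and 209 FPKM in H2122 shGFP and at 215, 209 and 213 in shNRF2, with overlapping groups (change 0.04, adjusted p = 0.129). In H460 the shGFP libraries held 211, 195 and 199 and the shNRF2 libraries 142, 134 and 125, a fall of 0.59 (adjusted p = 2.32e-08). The H2122 value of NOP10 depends on the scaling: with median-ratio factors recomputed from the H2122 libraries it was -0.11, and the median of all genes moved from 0.09 to -0.04 with it.

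Nucleolin (NCL) and nucleophosmin (NPM1), abundant nucleolar proteins that bind and chaperone ribosomal precursors, carried 38.6% ± 0.390 of the set's reads in H2122 shGFP and 44.4% ± 0.865 in H460 shGFP. NPM1 was at 963, 931 and 933 FPKM in H2122 shGFP and 273, 264 and 285 in shNRF2. In H460 it was at 1379, 1462 and 1408 in shGFP and 528, 590 and 575 in shNRF2. Its falls, 1.78 and 1.33 on the log2 scale, were among the steep ones in both lines. NCL fell by 1.75 in H2122 but by 0.67 in H460, from 639 to 701 FPKM in H460 shGFP to 403 to 438 in shNRF2. NPM3, a relative of NPM1, had the lowest value of the set in H2122: 89.4, 85.2 and 86.5 FPKM in shGFP and 15.5, 16.7 and 17.3 in shNRF2, a change of -2.33 (SE 0.040, adjusted p = 5.71e-11). NOLC1, a chaperone of snoRNPs, changed by -1.91 and -0.99. NPM1 has many processed pseudogenes in the human genome, and how reads shared with them were counted is not given in the sources used here.

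All 11 small subunit factors fell in H2122, with a median of -1.28, and 10 of them in H460, with a median of -0.63. RRP9, a protein of the U3 particle that guides early cuts, was lowest in H2122 (-1.68): 32.0, 31.7 and 33.6 FPKM in shGFP and 10.0, 9.04 and 9.39 in shNRF2. In H460 it changed by -0.52. RRP12, an export factor, changed by -1.58 and -0.67, and UTP20, a scaffold of the early precursor, by -1.31 and -0.83. NOB1, the nuclease of the last cut of the small subunit RNA, was at 59.6, 62.6 and 60.3 FPKM in H2122 shGFP and 30.9, 30.3 and 32.3 in shNRF2. It fell by 0.94 in H2122 and by 0.37 in H460. UTP3 had the smallest change of this group in H2122, -0.39, and in H460 stood at 22.3 to 23.3 FPKM in shGFP and 21.7 to 22.2 in shNRF2 (-0.04, adjusted p = 0.476).

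The 12 large subunit factors other than PPAN all fell in H2122 (median -1.16), and with PPAN 13 of 13 did (median -1.08). In H460 11 of the 13 fell and 1 rose (median -0.48). BOP1 and PES1, which with WDR12 form the PeBoW complex needed for large subunit RNA processing, moved apart in size: BOP1 fell by 1.74 and 0.67, PES1 by 1.23 and 0.26 and WDR12 by 0.73 and 0.72 in H2122 and H460. BOP1 was at 25.0, 25.9 and 27.9 FPKM in H2122 shGFP and 7.53, 6.94 and 7.10 in shNRF2. NOP16 was at 94.7, 98.7 and 103 FPKM in H2122 shGFP and 25.5, 24.1 and 25.7 in shNRF2 (-1.94), against a change of -0.62 in H460. EBNA1BP2 fell by 1.23 and 1.18. MRTO4, which places the stalk of the large subunit and is related to a ribosomal protein, changed in opposite directions. It was at 24.5, 25.0 and 25.3 FPKM in H2122 shGFP and 12.0, 12.3 and 12.6 in shNRF2, and at 16.1, 15.6 and 16.9 in H460 shGFP and 18.9, 20.6 and 20.7 in shNRF2. Neither pair of groups overlaps, and the changes were -0.96 (adjusted p = 2.05e-09) and 0.29 (adjusted p = 3.62e-05).

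Of the remaining nucleolar genes, LYAR, a nucleolar zinc finger protein, was one of the most reduced in either line, with changes of -2.07 and -1.50. It was at 53.2, 50.7 and 52.9 FPKM in H2122 shGFP and 11.2, 12.5 and 11.4 in shNRF2, while H460 went from a mean of 28.6 ± 0.854 with shGFP to 8.77, 9.63 and 10.0 with shNRF2. DDX21, an RNA helicase that acts on RNA polymerase I transcription and on snoRNAs, changed by -1.65 and -0.91.

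The RNA polymerase I members differed between the 2 lines, which were sampled at 24 h (H2122) and 72 h (H460). In H2122 all 7 fell, with a median of -0.91. In H460 4 of 7 fell, with a median of -0.11. The further RNA polymerase I genes counted below did not show this difference, as more of them fell in H460 than in H2122. POLR1A, the catalytic subunit, was at 9.46, 10.6 and 9.97 FPKM in H2122 shGFP and 5.05, 5.20 and 4.88 in shNRF2 (-0.86, SE 0.049). In H460 it was at 9.89, 11.3 and 10.5 in shGFP and 11.2, 10.9 and 10.9 in shNRF2, with overlapping groups (0.06, adjusted p = 0.254). POLR1B, the second large subunit, fell in both, by 1.31 and 0.38, from 20.9, 19.6 and 20.6 to 7.32, 7.79 and 7.68 FPKM in H2122. TCOF1 (treacle), which holds UBTF and the polymerase at the ribosomal DNA, was the most reduced of the group in both lines, with -1.94 and -1.11. UBTF, the factor that opens the ribosomal DNA, fell little: by 0.36 in H2122 and by 0.11 in H460, where the adjusted p was 0.0171 and the call was lost without shGFP replicate 3. RRN3, which carries the polymerase to the promoter, was at 12.7, 12.4 and 11.1 FPKM in H2122 shGFP and 10.9, 10.2 and 11.1 in shNRF2. These groups nearly touch: its fall of 0.15 (adjusted p = 0.0205) was no longer called without shGFP replicate 1 or 2 or shNRF2 replicate 2. In H460 RRN3 changed by -0.03 (adjusted p = 0.510).

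**Figure D3:**
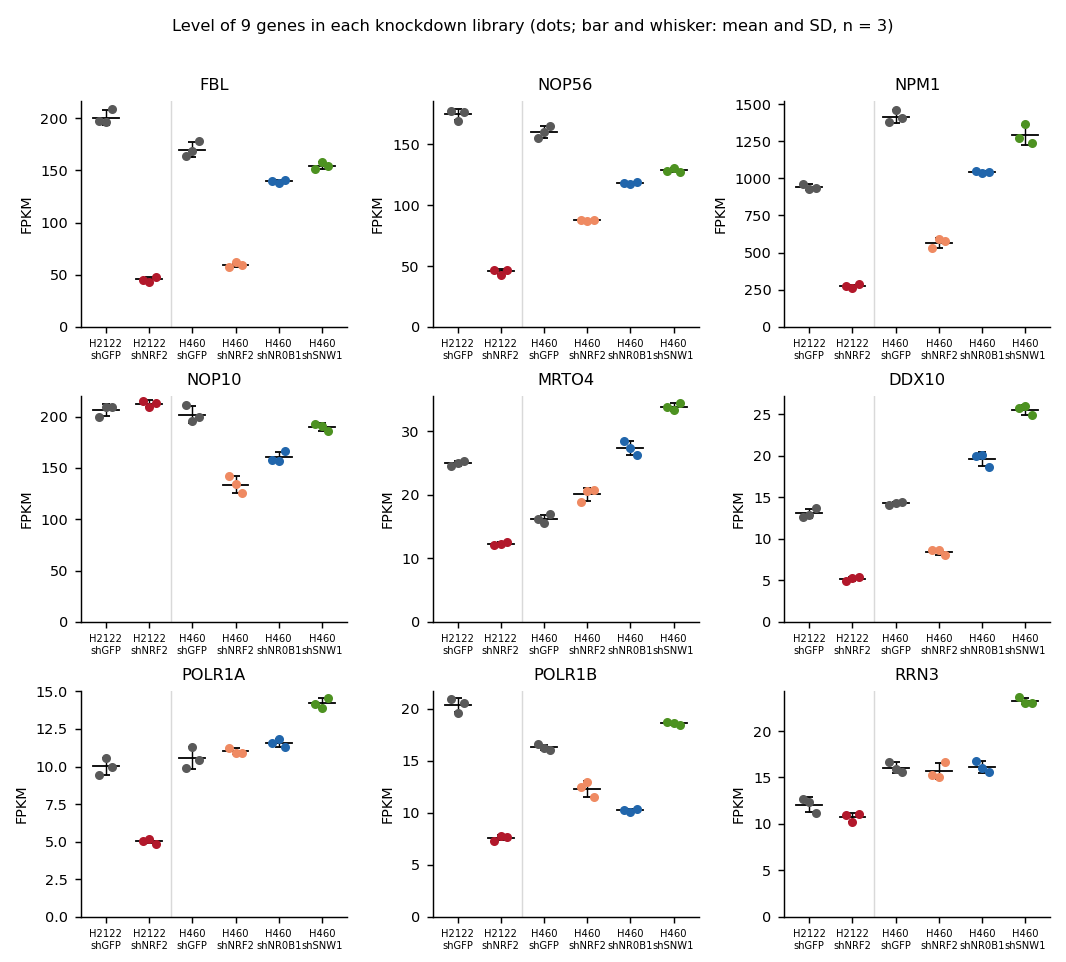
Level (y axis, FPKM) of 9 members in each of the 18 knockdown libraries, by group (x axis); dots are libraries, and the bar and whisker are the mean and SD of 3. FBL, NOP56 and NPM1 are lowest in both shNRF2 groups, NOP10 overlaps its control in H2122 shNRF2, and MRTO4, DDX10, POLR1A and RRN3 are highest in shSNW1.

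A direct test of the difference between the lines (an interaction term over both lines' shGFP and shNRF2 libraries) gave a lower change in H2122 for 38 members and a higher one for 1, NOP10. Of the 38, 33 fell in both lines and fell further in H2122, 4 (POLR1A, POLR1C, PPAN and UTP3) fell in H2122 and were not called in H460, and MRTO4 fell in H2122 and rose in H460. Of all 12798 genes tested, 34.3% were called on the lower and 37.4% on the higher side. The median difference over the members was -0.73, against 0.02 over all genes. Differences were greatest for NOP16 (-1.32, SE 0.062), RRS1 (-1.29), MRTO4 (-1.26), RRP9 (-1.15) and NPM3 (-1.11), and NCL, BOP1 and NOP56 followed at -1.08, -1.06 and -1.06. Among the polymerase genes, POLR1B differed by -0.93, POLR1A by -0.92 and UBTF by -0.26. FBL (-0.62), NPM1 (-0.45), NOB1 (-0.57) and DKC1 (-0.94) differed as well, whereas GAR1 (0.03), WDR12 (-0.01), EBNA1BP2 (-0.05), GNL3 (-0.09) and RRN3 (-0.12) did not pass the test. NOP10 differed by 0.64. The lines also differ in the time of sampling, 24 h and 72 h, and in the fall of NFE2L2 itself. That fall was 1.11 in H2122 and 0.67 in H460 on the log2 scale. NR0B1 RNA left in shNRF2 differed too, at 0.921 to 0.994 FPKM in H2122 and 8.82 to 9.35 in H460. Line, time and depth of the knockdown cannot be told apart, and the part of NR0B1 was not tested.

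**Figure D4:**
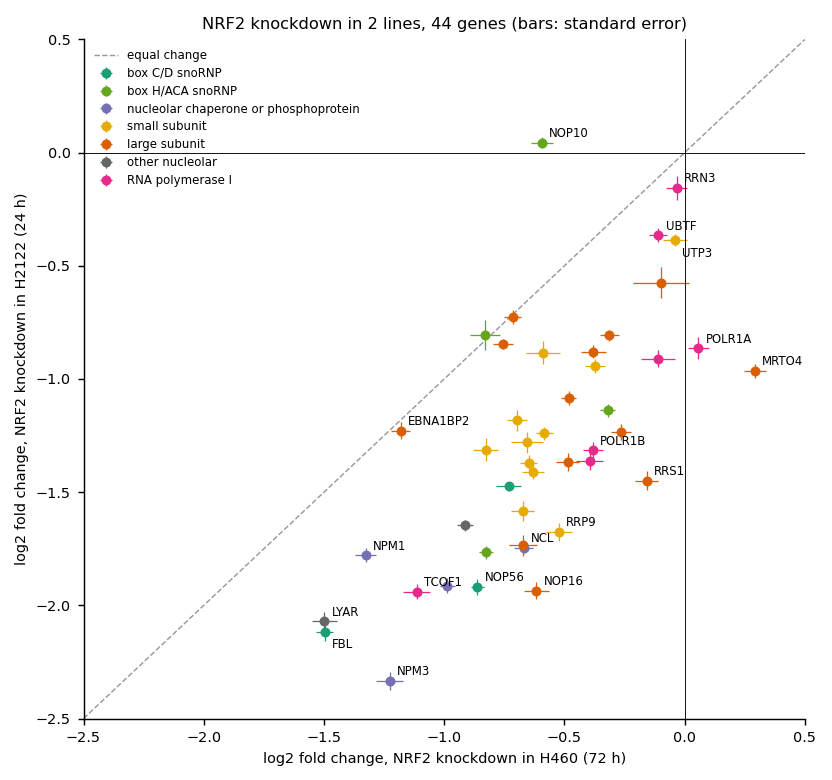
Log2 fold change after NRF2 knockdown in H2122 (y axis) against that in H460 (x axis) for the 44 members, coloured by role, with standard errors; the dashed line marks equal change. Most points lie below the line, NOP10 lies above it, and MRTO4 lies at -0.96 in H2122 and 0.29 in H460.

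Control levels differed between the lines in both directions. The shGFP groups were sampled at 24 h in H2122 and at 72 h in H460, so line and time cannot be told apart here either. Between the shGFP groups, 24 members were higher in H2122 and 12 lower, where the background was 44.4% higher and 41.1% lower, and the median difference was 0.16. LYAR (0.85), NIP7 (0.81) and NOP16 (0.77) were the highest in H2122 relative to H460, and POLR1E (-0.69), NPM3 (-0.68) and NPM1 (-0.59) the lowest. Of the other core genes, FBL was higher by 0.24, NOP56 by 0.12, NCL by 0.17, POLR1B by 0.31 and UBTF by 0.18, DKC1 differed by -0.41 and RRN3 by -0.39, and BOP1 (0.10), NOB1 (-0.09) and POLR1A (-0.07) did not pass the test. Per length, the order of levels was similar at the top in both lines, with NPM1 (1416 FPKM in H460, 942 in H2122), NCL (671 and 756), NOP10 (202 and 206) and FBL (170 and 201) leading and PPAN last; NOP10 and FBL overlap in H2122 and do not in H460.

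The genes around the set were counted from lists of related genes. Of 73 further biogenesis factors, 71 fell and 1 rose in H2122 (median -0.82), and 57 fell and 6 rose in H460 (median -0.42). MYBBP1A, a nucleolar partner of MYB and of the polymerase, changed by -1.81 in H2122 and -0.33 in H460, and HEATR1, an early small subunit factor, by -0.86 and -0.17. BMS1, a GTPase of the small subunit, changed by -0.39 and -0.44. EIF6, which keeps immature large subunits from joining, had changes of -0.08 and -0.01, the latter not past the test. Of 8 further RNA polymerase I genes, 5 fell and 2 rose in H2122 and 7 fell and 1 rose in H460: TAF1D changed by -0.70 and -0.75, TWISTNB by -0.53 and -0.42 and POLR1D, shared with RNA polymerase III, by -0.08 and -0.23. The 10 RNA polymerase III genes were mixed, with 6 lower and 3 higher in H2122 and 4 lower and 5 higher in H460, and of 5 subunits shared between polymerases 3 fell and 1 rose in each line. Of the ribosomal protein genes, many of which have processed pseudogenes, all 76 tested fell in H2122 with a median of -0.66, and 58 of 77 fell and 3 rose in H460 with a median of -0.25. Their control level was lower in H2122 (24 h) than in H460 (72 h) for 75 of 77.

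MYC RNA was measured beside the set. In H2122 the 3 shGFP libraries each held 173 FPKM and the shNRF2 libraries 48.4, 46.0 and 51.6. In H460 the values were 152, 152 and 165 with shGFP against 80.6, 79.5 and 83.3 with shNRF2. MYC changed by -1.81 and -0.94 on the log2 scale, with a difference of -0.87 (adjusted p = 2.95e-08). After NR0B1 and SNW1 knockdown MYC was at 175 and 173 FPKM, a rise of 0.17 and 0.14. The part of MYC in the members' changes was not tested.

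NR0B1 is a nuclear receptor without a DNA-binding domain of the usual kind and is known mostly as a corepressor. Its knockdown in H460 lowered 35 members and raised 3, against a background of 36.8% lower and 33.1% higher, with a median of -0.32 over the members and -0.02 over all genes. The read share of the set was 0.801% ± 0.0103 in shNR0B1. EBNA1BP2 changed most: the shGFP libraries held 110, 114 and 118 FPKM and the shNR0B1 libraries 61.9, 56.1 and 57.3 (-0.95, SE 0.040, adjusted p = 2.36e-10). WDR43, a small subunit factor, followed at -0.75, from 46.4 to 51.5 FPKM in shGFP to 28.5 to 30.3, and NOLC1 at -0.67. POLR1B was at 16.6, 16.3 and 16.1 FPKM in shGFP and 10.2, 10.1 and 10.4 in shNR0B1 (-0.62), below its shNRF2 libraries at 12.5, 13.0 and 11.5. The snoRNP and nucleolar core moved less than after NRF2 knockdown, with NOP56 at -0.43, NPM1 at -0.44, DKC1 and BOP1 at -0.33, FBL at -0.28 and NCL at -0.18. Marker sums moved with this knockdown: the epithelial sum was 1972 to 2249 FPKM in shGFP and 1198 to 1223 in shNR0B1, the immune sum 4.93 to 6.20 and 10.5 to 10.98, and the fibroblast sum 15.5 to 16.3 and 22.2 to 23.7. Their part in the members' changes was not tested.

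Members that rose after NR0B1 knockdown were MRTO4 (0.72, from 15.6 to 16.9 FPKM in shGFP to 26.3 to 28.4), DDX10, a small subunit helicase (0.43, from 14.1, 14.3 and 14.5 FPKM to 20.1, 20.2 and 18.6), and POLR1A (0.12). The rise of POLR1A had an adjusted p of 0.0253 and was not called without shGFP replicate 1 or 3 or shNR0B1 replicate 1 or 2. UBTF (0.03) and RRN3 (0.01) did not pass the test. The fall of NOB1 (-0.12, adjusted p = 0.0216) was lost when libraries were scaled to a common total of reads, and without shGFP replicate 3 or shNR0B1 replicate 1 or 2. Of the 73 further biogenesis factors 49 fell and 9 rose, and of 77 tested ribosomal protein genes 68 fell and none rose (median -0.30). BMS1 (-0.02) and HEATR1 (-0.06) did not pass the test, MYBBP1A fell by 0.11, TWISTNB by 0.49, TAF1D by 0.33 and POLR1D by 0.27, and EIF6 rose by 0.13.

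SNW1 is a coregulator of transcription and a part of the spliceosome. After its knockdown 18 members rose and 8 fell, with 30.8% of all genes higher and 36.4% lower, and the median of the members was 0.03 against -0.03 over all genes. With libraries scaled to a common total of reads the split was 23 higher and 5 lower, and the share of all genes under that scaling is not given here. A minimum change of 1.5 fold left 2 members higher and 0 lower. MRTO4 rose most, from 16.1, 15.6 and 16.9 FPKM in shGFP to 33.7, 33.3 and 34.4 (1.02, SE 0.045, adjusted p = 4.50e-10). DDX10 went from 14.1 to 14.5 FPKM in shGFP to 25.8, 26.1 and 24.9 (0.80), and RRN3 from 16.7, 15.9 and 15.6 to 23.7, 23.0 and 23.1 (0.51, adjusted p = 3.03e-07). No shSNW1 library of these 3 genes overlaps the control.

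By role, 8 of 11 small subunit factors and 5 of 7 polymerase genes rose after SNW1 knockdown, among them RRP9 (0.44), RRP12 (0.41), POLR1A (0.40) and POLR1B (0.18), and none of the 3 box C/D or 4 box H/ACA genes did. The 8 that fell were POLR1E (-0.37), NHP2 (-0.35), NOP56 (-0.31), NPM3 (-0.26), EBNA1BP2 (-0.17), FBL (-0.14), NPM1 (-0.13) and RRP1B (-0.10). FBL, NPM1 and RRP1B were not called with a common total of reads, and NPM1 was also lost without shGFP replicate 2 or shSNW1 replicate 1 or 3. NCL (0.01), DKC1 (-0.05), BOP1 (-0.11), NOB1 (0.03) and UBTF (0.00) did not pass the test. The members took 1.00% ± 0.0203 of the reads. Of the further biogenesis factors 38 rose and 8 fell, with EIF6 at 0.60, BMS1 at 0.42 and HEATR1 at 0.18, while MYBBP1A (0.07) and TWISTNB (-0.02) did not pass the test and TAF1D and POLR1D fell by 0.18 and 0.19. The epithelial marker sum was 1884 to 1943 FPKM and the immune sum 2.65 to 2.73 in shSNW1, both below shGFP, and their part was not tested. Ribosomal protein genes went the other way, with 61 of 77 lower and 2 higher (median -0.20).

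The 3 H460 knockdowns share their shGFP libraries, so their values are given side by side, in the order NRF2, NR0B1 and SNW1, and the patterns they share are not read as a result. EBNA1BP2 changed by -1.18, -0.95 and -0.17, NPM3 by -1.23, -0.64 and -0.26 and POLR1E by -0.40, -0.59 and -0.37. MRTO4 changed by 0.29, 0.72 and 1.02. TCOF1 changed by -1.11, -0.21 and 0.22 and BYSL by -0.66, -0.25 and 0.31. DDX10 changed by -0.70, to 8.70, 8.62 and 8.02 FPKM in shNRF2, and by 0.43 and 0.80. All of these values passed the test in their own comparison.

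Knockdown groups were also compared with each other. Between shNRF2 and shNR0B1, 31 members were lower and 5 higher in shNRF2 (background 36.7% and 37.8%), with a median of -0.30. With a common total of reads the split was 36 lower and 1 higher, POLR1B; the median of all genes then moved from 0.01 to -0.09. FBL (-1.21), DDX10 (-1.13) and LYAR (-0.93) were the lowest in shNRF2 relative to shNR0B1. NPM1 differed by -0.89, NCL and DKC1 by -0.49, NOP56 by -0.43, BOP1 by -0.34, NOB1 by -0.25 and UBTF by -0.14. POLR1B (0.24), RRS1 (0.19), POLR1E (0.19), UTP3 (0.14) and WDR43 (0.12) were higher, while POLR1A (-0.07) and RRN3 (-0.04) did not pass the test. WDR43 was not called without shNR0B1 replicate 2 or 3 or shNRF2 replicate 2, and UTP3 not without shNR0B1 replicate 3 or shNRF2 replicate 2 or 3.

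Against shSNW1, 42 members were lower in shNRF2 and none higher (background 39.1% and 39.6%), with a median of -0.68. A common total of reads moved the median of all genes here from 0.01 to -0.10. DDX10 (-1.49), LYAR (-1.46) and FBL (-1.36) differed most, followed by TCOF1 (-1.33) and NPM1 (-1.19). DKC1 differed by -0.77, NCL by -0.68, BOP1 and POLR1B by -0.56, NOP56 by -0.55, RRN3 by -0.54, NOB1 by -0.41, POLR1A by -0.34 and UBTF by -0.11. POLR1E (-0.02) and NHP2 (0.03) did not pass the test.

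Between shNR0B1 and shSNW1, 40 members were lower in shNR0B1 and 1, NHP2, higher (background 33.1% and 34.7%), with a median of -0.35. WDR43 (-1.03), POLR1B (-0.80) and EBNA1BP2 (-0.78) differed most, and RRN3 by -0.50. NPM1 (-0.31), DKC1 (-0.28), POLR1A (-0.27), BOP1 (-0.22), NCL (-0.19), NOB1 (-0.15), FBL (-0.15) and NOP56 (-0.12) were lower by less. The higher value of NHP2 (0.10) was not called without shNR0B1 replicate 3 or shSNW1 replicate 3. UBTF (0.03), RRP1B (-0.01) and NOP14 (-0.08) did not pass the test.

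Compound effects on the set were small. The lengths behind the compound columns differ from those of the knockdown columns. Their ratio lay over 2 fold from its median for 50% of the members and 53.6% of all 12845 genes read in both experiments. Values of single genes in the compound libraries are therefore given as reads scaled for depth, and no level is compared between the experiments. Marker sums of the compound libraries are in FPKM and are compared only with each other. After BPK29, 23 members fell and 2 rose, where 29.3% of 11461 genes were lower and 21.1% higher, and the median was -0.09, or 0.942 times DMSO. With a common total of reads, 13 fell and 5 rose, and the share of all genes under that scaling is not given here. No member changed by 1.5 fold or more. NPM1 was at 78061, 78956 and 77313 scaled reads in DMSO and at 64039, 64729 and 64396 with BPK29 (-0.28, SE 0.023, adjusted p = 1.31e-05). BYSL, a small subunit factor, was at 1252, 1339 and 1279 in DMSO and at 1065, 1053 and 987 with BPK29 (-0.29). MRTO4 and LYAR fell by 0.27 each. MRTO4 had risen after each knockdown in H460, but those rises share their shGFP libraries and come from a separate experiment.

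With the deposited scaling the rises after BPK29 were both in RNA polymerase I. More members were called higher with other scalings: 4 with median-ratio factors within the fit, 5 with a common total of reads and 7 with voom. POLR1C, a subunit shared with RNA polymerase III, was at 730, 728 and 765 scaled reads in DMSO and at 938, 880 and 902 with BPK29 (0.27, adjusted p = 0.00025), with no overlap. POLR1B rose by 0.11 (adjusted p = 0.0271), a call that was lost without DMSO replicate 1 or BPK29 replicate 1 or 3. Falls in the core were BOP1 -0.18, DKC1 -0.15, NCL -0.13, FBL -0.09 and NOP56 -0.09, and those of FBL and NOP56 were not called with a common total of reads or without DMSO replicate 1. The fall of FBL was also lost without DMSO replicate 2 or BPK29 replicate 2 or 3. UBTF (0.05), NOB1 (0.06), RRN3 (0.08), POLR1A (-0.07) and PPAN (0.17) did not pass the test. Of the further biogenesis factors 35 fell and 6 rose; HEATR1 rose by 0.15, and BMS1, EIF6, MYBBP1A and TWISTNB fell by 0.17, 0.19, 0.13 and 0.27, while TAF1D (0.00) and POLR1D (-0.05) did not pass the test. MYC rose by 0.18, from 9607 to 9714 scaled reads in DMSO to 10906 to 11034, and its part was not tested. The fibroblast markers summed to 113 to 125 FPKM in DMSO and 73.9 to 82.4 with BPK29, the epithelial markers to 687 to 697 and 572 to 582, and the immune markers to 2.76 to 2.96 and 1.49 to 2.18. With BPK9 the fibroblast sum was 111 to 116 and the epithelial sum 657 to 663. The part of these lists was not tested.

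With BPK9 at the same dose and time none of the 44 members was called in either direction, and among all genes 1 was lower (0.00873%) and none higher (0.0%) by limma; the 1 gene, named after its value was seen, is the small nucleolar RNA SNORA71A. At an unadjusted p under 0.05 there were 17 members and 1725 of 11461 genes, and limma's voom on the recovered reads called 2 members lower, DDX21 and RRS1. The median was -0.06 over the members, and the lowest values were RRS1 (-0.17), POLR1E (-0.11) and GAR1 (-0.10), the highest NOP10 (0.06) and PPAN and NHP2 (0.02). Of the core, POLR1A was at -0.08, DKC1 at -0.07, NOP56 at -0.06, NPM1, NCL and POLR1B at -0.05, RRN3 at -0.06, BOP1 and NOB1 at -0.02, FBL at -0.01 and UBTF at 0.01. The 95% intervals of all members lay between -0.25 and 0.29. Below the mean of the DMSO libraries lay 37, 40 and 38 members in the BPK9 libraries and 34, 37 and 34 in the BPK29 libraries. The DMSO libraries themselves had 26, 7 and 27 below it.

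Between the compounds, 14 members were lower with BPK29 than with BPK9 and 5 higher (background 27.2% and 19.7%). With a common total of reads 7 were lower and 10 higher, and the members' median turned from -0.03 to 0.02. The background under that scaling is not given here. This is the only pair of compounds compared, and the labels give no structure for either code. NPM1 (-0.23), BYSL (-0.21) and LYAR (-0.20) were lowest, and BOP1 (-0.16), NCL (-0.08), FBL (-0.08) and DKC1 (-0.07) were lower too. POLR1C (0.30), POLR1B (0.16), RRS1 (0.15), RRN3 (0.13) and NOB1 (0.08) were higher, and PPAN (0.15), NOP56 (-0.03), POLR1A (0.01) and UBTF (0.04) did not pass the test. The calls of FBL, DKC1, NCL and NOB1 were each lost without BPK29 replicate 2, and those of FBL, DKC1 and NCL also with a common total of reads. FBL was lost as well without BPK29 replicate 3 or BPK9 replicate 1 or 2, DKC1 without BPK29 replicate 1 or BPK9 replicate 1 or 3, and NOB1 without BPK29 replicate 1 or BPK9 replicate 2 or 3. For POLR1B, BPK9 gave 2457, 2589 and 2573 scaled reads and BPK29 2911, 2778 and 2838. For the members that did not pass, the 95% intervals of the difference lay between -0.15 and 0.42.

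**Figure D5:**
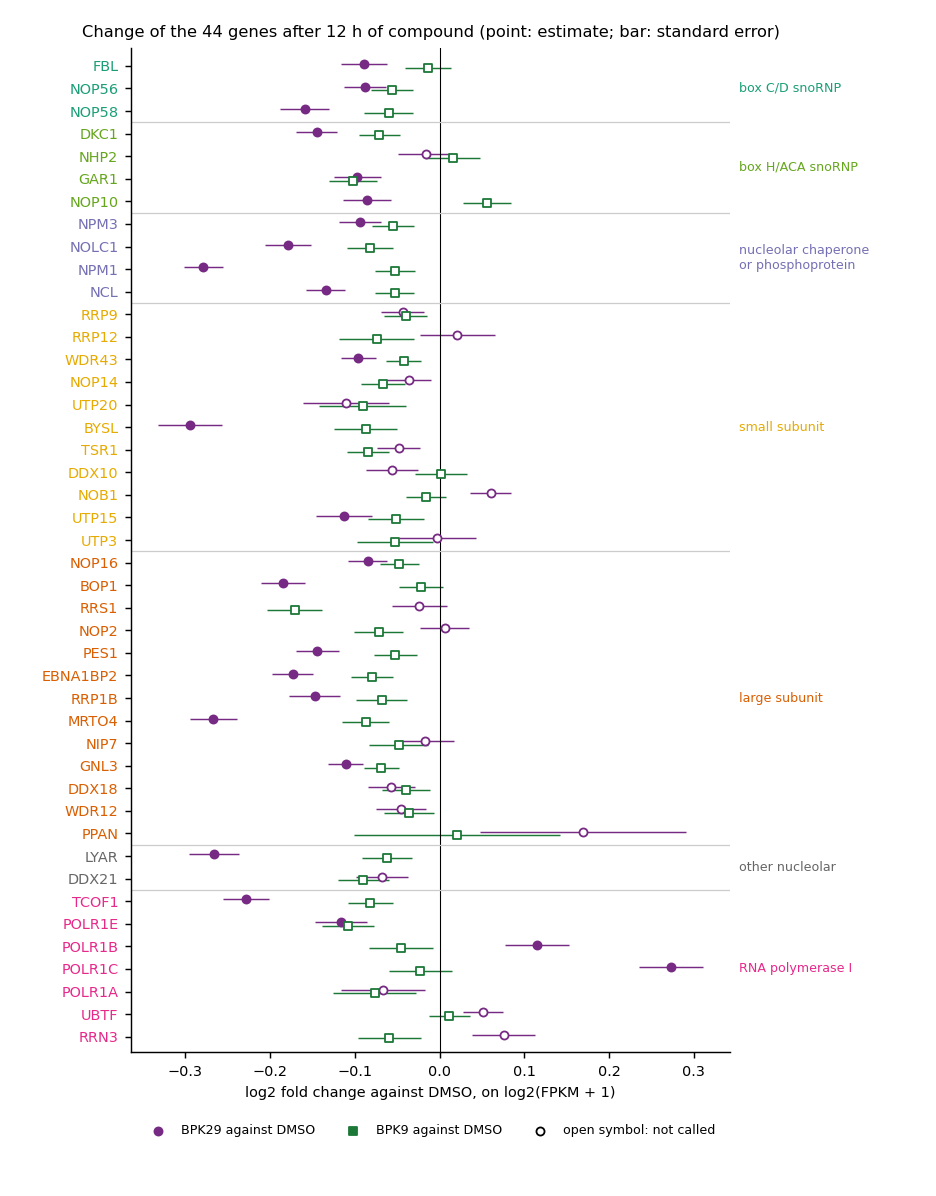
Log2 fold change against DMSO (x axis, on log2(FPKM + 1)) for the 44 members (y axis, grouped by role) after 12 h of BPK29 or BPK9; bars are standard errors and open symbols did not pass the test. Points lie between -0.29 and 0.27, NPM1 and BYSL are lowest and POLR1C highest with BPK29, and every BPK9 symbol is open.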

How the data were processed

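RNA was measured in 27 libraries of 9 groups (18 knockdown, 9 compound); the NR0B1 chromatin immunoprecipitation and its input were not used here. The authors deposited one table of FPKM values for 23710 gene symbols. The submitters' processing notes name hg19, STAR, featureCounts and DESeq2; their versions and roles, the annotation and the strand setting were not given in the sources used here. Whole reads were recovered from the deposited FPKM of every gene above 0 (100% of 19217 genes in the knockdown and 100% of 17715 in the compound columns, tolerance 0.02 reads). The deposited depth scaling follows median-ratio factors over the 18 knockdown libraries and lies up to 6.45% from library totals.

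Comparisons used limma 3.58.1 (R 4.3.3) on log2(FPKM + 1) with trended variance, on genes with at least 1 FPKM in 3 libraries of the fit, with Benjamini-Hochberg adjustment over all genes tested and a threshold of 0.05. The fits held the 6 H2122, the 12 H460 knockdown, the 12 NRF2 and shGFP or the 9 compound libraries. Fold changes on this scale understate the change of low genes. The count test was limma's voom on the recovered reads, an alternative that scales by library totals in place of the deposited depth factors. Recovery and fits were tested on simulated data. Named genes are FBL, NOP56, DKC1, NCL, NPM1, BOP1, NOB1, POLR1A, POLR1B, UBTF and RRN3, the 3 lowest and 3 highest members of each comparison, members against the majority where 5 or fewer, and members named for their role. The members and lists were chosen with earlier results of these data known.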

Additional observations from a re-analysis of the deposited data

Results flagged for a closer look

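The NRF2 knockdown changed 39 members by different amounts in the 2 lines, by the interaction term of limma at an adjusted p under 0.05, which 34.3% of all genes passed on the lower and 37.4% on the higher side. Values are the log2 change in H2122 minus that in H460, and negative values mark a lower change in H2122. For the large subunit factors they were NOP16 -1.32, RRS1 -1.29, MRTO4 -1.26, BOP1 -1.06, PES1 -0.97, NOP2 -0.88, RRP1B -0.60, NIP7 -0.50, DDX18 -0.49 and PPAN -0.47. The small subunit factors gave RRP9 -1.15, RRP12 -0.91, WDR43 -0.78, NOP14 -0.72, TSR1 -0.65, BYSL -0.62, NOB1 -0.57, DDX10 -0.48, UTP20 -0.48, UTP3 -0.35 and UTP15 -0.30. The nucleolar chaperones gave NPM3 -1.11, NCL -1.08, NOLC1 -0.92 and NPM1 -0.45, and LYAR and DDX21 gave -0.57 and -0.73. Among the snoRNP genes the values were NOP56 -1.06, NOP58 -0.74, FBL -0.62, DKC1 -0.94 and NHP2 -0.82, and NOP10, at 0.64, was the member with the opposite sign. The RNA polymerase I genes gave POLR1E -0.97, POLR1B -0.93, POLR1A -0.92, TCOF1 -0.82, POLR1C -0.80 and UBTF -0.26. Line, time of sampling and depth of the knockdown cannot be told apart in these values.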

How the results depend on the processing

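Each count of members was recomputed with a pseudocount of 0.1, no filter on low values, 2 other scalings, voom, only the groups compared, a minimum change of 1.5 fold, the replicate number as a block and each library left out in turn. Scaling to a common total of reads gave 1 member higher in H2122, 5 lower after SNW1 knockdown, 1 higher between shNRF2 and shNR0B1, 13 lower and 5 higher for BPK29 against DMSO, and 7 lower and 10 higher between the compounds. Median-ratio factors within the fit gave 4 higher for BPK29 against DMSO. With voom 5 were lower after SNW1 knockdown, 1 was higher between shNRF2 and shNR0B1, 13 were lower and 7 higher for BPK29 and 2 lower for BPK9 against DMSO, and 7 were lower and 12 higher between the compounds. Voom also scales by library totals, so its shifts are no independent check on those of the common total. A minimum of 1.5 fold left 25 lower and 0 higher after NRF2 knockdown in H460, 6 and 1 after NR0B1, 0 and 2 after SNW1, 3 and 7 for the control level, 8 and 0 between shNRF2 and shNR0B1, 24 lower against shSNW1, 6 and 0 between shNR0B1 and shSNW1, and 0 and 0 for BPK29 against DMSO and against BPK9; here the stricter call itself removes members. The cause of the other shifts was not tested. Shares of all genes called are not given for these settings, so the shifted counts have no background beside them. Leaving out 1 library moved the count of higher members between 1 and 2 after NRF2 knockdown in H460, 3 and 5 between shNRF2 and shNR0B1, 0 and 1 between shNR0B1 and shSNW1, and 1 and 2 for BPK29 against DMSO. By gene, 2 values reversed: NOP10 in H2122 with median-ratio factors (-0.11) and NHP2 between shNRF2 and shSNW1 with a common total (-0.084). Over the settings that keep every library, 3712 gene values kept their call, 65 gained one and 313 lost one, 235 of the latter through the fold minimum.

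Same-numbered libraries deviated together, with a correlation over 0.1, in 13 of 54 pairs (range -0.218 to 0.185). Correlations between differently numbered libraries were not computed, so these values cannot tell whether the numbers pair the libraries. With the replicate block 43 members were lower in H2122 and 38 in H460, and the block changed no member's call in any of the 12 comparisons.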
